A study of Mus musculus with 4 samples.

Results

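Leukotrienes and prostaglandins are lipid mediators made from arachidonic acid, and 9 mouse genes for their synthesis and reception were examined in bone marrow lacking Mtg16. Members were chosen by name, with earlier results of these data known. They were the leukotriene B4 receptor gene Ltb4r1 and the leukotriene synthesis genes Alox5, Alox5ap, Lta4h and Ltc4s. Also included were the lipoxygenase gene Alox15, the cyclooxygenase genes Ptgs1 and Ptgs2, and the haematopoietic prostaglandin D synthase gene Hpgds. Of these 9, 4 had a probe that the platform annotation assigns to that gene alone, out of 13840 genes with such a probe: Ltb4r1, Alox5ap, Lta4h and Hpgds, with 1 probe each. Alox5, Ltc4s, Alox15, Ptgs1 and Ptgs2 were not analysed here.

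RNA came from lineage-negative bone marrow, what is left once cells with mature lineage markers are pulled out on magnetic columns, and was measured on Applied Biosystems arrays of 1 colour. There were 2 arrays of Mtg16-null female mice, labelled as N4 backcrossed into C57BL/6, and 2 arrays of wild-type C57BL/6 females. All mice were aged 8 to 12 weeks, each RNA was a pool of 4 mice, and array lots 1 and 2 each held 1 array per genotype. The null allele is not described in the labels, nor is it stated that the 2 arrays of a genotype came from separate pools, so p-values cover only the spread among these 4 samples, possibly a technical one.

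In leukocytes, cytosolic phospholipase A2 frees arachidonic acid from membranes. Alox5, the 5-lipoxygenase, oxidises it with the help of the membrane protein FLAP, the product of Alox5ap, to leukotriene A4. Lta4h then hydrolyses leukotriene A4 to leukotriene B4, a neutrophil attractant sensed by the receptor Ltb4r1, whereas Ltc4s joins it to glutathione to give the cysteinyl leukotrienes. Cyclooxygenases turn the same fatty acid into prostaglandin H2, from which Hpgds makes prostaglandin D2 in mast cells and other blood cells. Mtg16, encoded by Cbfa2t3, is a transcriptional corepressor of the ETO family.

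The arrays had a common signal distribution, with a median of 470.4 units. Cbfa2t3 itself averaged 107046 ± 16300 units on arrays labelled Mtg16-null and 90555 ± 13719 units on wild-type arrays (SD, n = 2 each), and since the position of its probe relative to the deleted part is unknown here, this checks the labels in neither direction. The progenitor gene Kit, for the stem cell factor receptor, was bright, at 34022 and 41866 units on null arrays. It had 39213 and 47408 units on wild-type arrays. Not every stem and multipotent cell marker was bright, and the lowest single value in that list was 94.2 units. Lymphoid transcripts were not all at background. The T cell genes Cd3e and Cd4 read between 119.9 and 325 units over the 4 arrays, close to the 94.5 to 310.2 units of 3 Y-linked probes, whose targets female mice lack. Above that span were Cd3g, at 489 to 739 units, and the B cell genes Cd79a, at 1226 to 2530.5 units, and Cd79b, at 9441 to 22150.2 units. In limma's moderated test with Benjamini-Hochberg adjustment, 10 of 8445 genes passed an adjusted p under 0.05, or 0.118%, all lower in null arrays. With the lot as a block, 0 passed (smallest adjusted p = 0.113). That fit leaves 1 residual degree of freedom. In it, 2055 genes had an unadjusted limma p under 0.05, against 1392 without the block.

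Signals of the 3 leukotriene genes with bright probes were higher on both null arrays than on both wild-type arrays, by close to 2-fold, while Hpgds was dim and had no stable direction. None of the 3 passed the limma test over all genes, and all 3 had an unadjusted p under 0.05. That unadjusted count compares with 9.65% of all 8445 genes at an unadjusted p under 0.05 and higher in null arrays. Separation of the 2 groups, with both null arrays above both wild-type arrays, was seen in these 3 and in 22.6% of all genes. Since the members were chosen with earlier results of these data known, neither share tests them as a set. A fall in the share of one cell type and a fall in its RNA per cell cannot be told apart in such bulk RNA, nor can a rise in either.

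Ltb4r1, the high-affinity receptor gene for leukotriene B4, gave 12916 and 11782 signal units on null arrays 1 and 2, against 6078 and 5521 units on wild-type arrays 1 and 2. Null arrays were both high and the groups did not overlap. Means were 12349 ± 802 units in null marrow and 5799.8 ± 394 units in wild type (SD, n = 2 each), a ratio of 2.13. The log2 difference, null minus wild type, was 1.09 (SE 0.18, 95% interval 0.60 to 1.58, limma adjusted p = 0.105), and it lay at percentile 95.2 of the differences of all tested genes. It was 1.09 within lot 1 and 1.09 within lot 2.

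Alox5ap, which encodes the protein FLAP that presents arachidonic acid to 5-lipoxygenase, had 211450.0 and 200102 units on null arrays, against 98809.5 and 100575 units on wild-type arrays. Both null arrays were high, and the arrays within a genotype lay close together. Average signal was 205776 ± 8024 units in null and 99692 ± 1249 units in wild-type marrow (SD, n = 2 each), 2.06-fold higher. The log2 difference was 1.05 (SE 0.17, 95% interval 0.59 to 1.50, limma adjusted p = 0.105), with 1.10 in lot 1 and 0.99 in lot 2. Its level lay at percentile 97.9 of all probes on these arrays.

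Lta4h, the hydrolase gene for the last step to leukotriene B4, had 12179 and 10120.4 units on null arrays and 7549 and 4748 units on wild-type arrays. Groups were separate, but the 2 wild-type arrays differed more from each other than did those of Ltb4r1 or Alox5ap. The means were 11149.8 ± 1456 units in null and 6148 ± 1981 units in wild type (SD, n = 2 each). The log2 difference was 0.89 (SE 0.30, 95% interval 0.07 to 1.72, limma adjusted p = 0.279), with 0.69 in lot 1 and 1.09 in lot 2. The size moved with the wild-type arrays: leaving out the second gave 0.56, and leaving out the first gave 1.23.

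Hpgds read 589.8 and 193 units on null arrays and 322 and 556 units on wild-type arrays. The groups overlapped, with the highest and the lowest value both on null arrays, and 193 units lies inside the span of values that Y-linked probes gave. Its probe was below the brighter 50% of probes that were tested. In the fit without that filter, its log2 difference was -0.33 (SE 0.66, 95% interval -2.15 to 1.50, limma adjusted p = 0.912). Lots disagreed in direction, with a log2 difference of 0.87 in lot 1 and -1.52 in lot 2. Among the 13840 genes of that fit 0 passed limma at an adjusted p under 0.05, or 0%, and 1514 had an unadjusted p under 0.05.

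**Figure D1:**
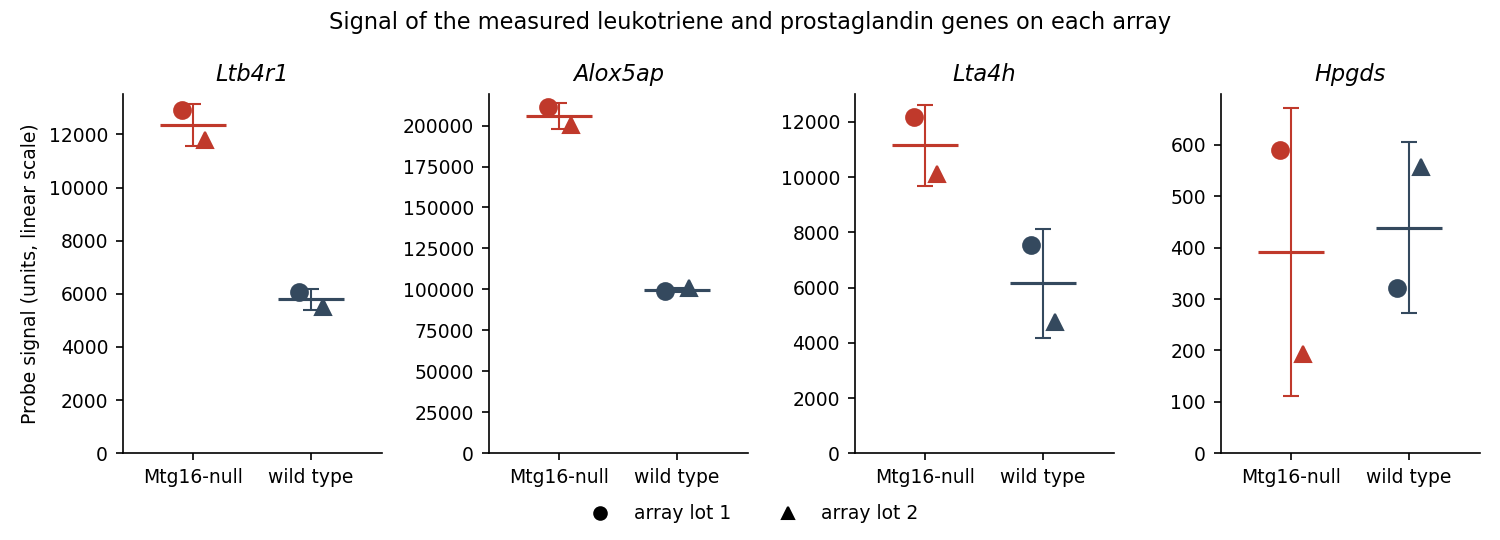
Probe signal (linear units, each panel with its own axis from 0) of Ltb4r1, Alox5ap, Lta4h and Hpgds on the 2 Mtg16-null arrays (red) and the 2 wild-type arrays (dark), with circles for lot 1, triangles for lot 2, bars for the mean and whiskers for 1 SD. Null arrays lie above wild-type arrays for Ltb4r1, Alox5ap and Lta4h, and the groups overlap for Hpgds.

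An exact two-sided permutation test over the 4 arrays cannot give a p below 0.333, and it gave 0.333 for Ltb4r1, Alox5ap and Lta4h. Calls for the members differed between limma settings. With a variance trend, Ltb4r1 and Alox5ap passed (limma adjusted p = 0.0353 and 0.0239), as they did with the brighter 25% of probes (0.0250 and 0.0249). Lta4h did not pass in either (limma adjusted p = 0.166 and 0.138). Over all genes, 295 of 8445 passed with the variance trend and 291 of 4967 with the brighter 25%. The fit reported had 10 of 8445.

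Genes with the most similar profile to Ltb4r1 over the 4 arrays, by Euclidean distance of log2 values centred per gene, were Hexa (distance 0.03), a lysosomal hexosaminidase subunit gene, S100a4 (0.06), a calcium-binding protein gene, and Aatk (0.07), a kinase gene. Their log2 differences were 1.06, 1.03 and 1.13. For Hpgds, the member with the lowest difference, the nearest were Olfr68, Defa31 and Olfr1232, at distances of 0.17, 0.28 and 0.38. With 4 arrays, likeness of this kind describes little beyond the genotype and lot differences.

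**Figure D2:**
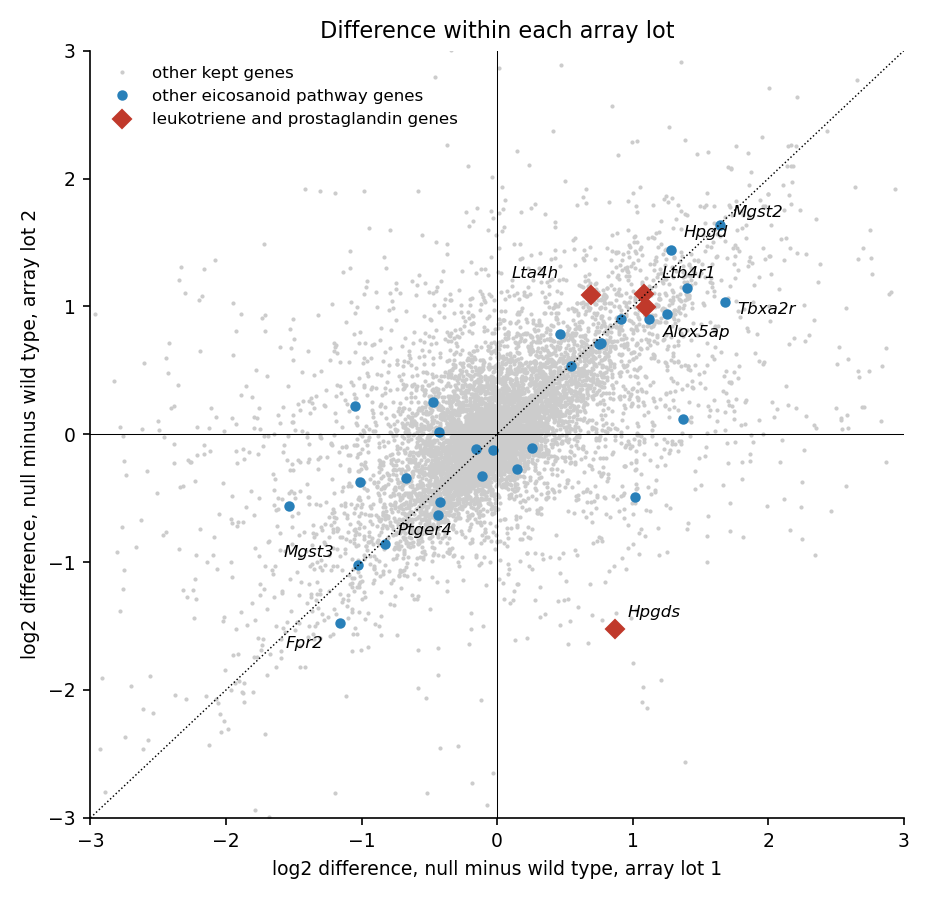
Log2 difference, null minus wild type, within lot 1 (horizontal) and within lot 2 (vertical) for each tested gene (grey), the other eicosanoid pathway genes (blue) and the 4 measured leukotriene and prostaglandin genes (red diamonds); the dotted line marks equal differences, and 52 of the 8445 tested genes lie beyond the limits of 3. Ltb4r1 lies on the line near 1, Alox5ap lies slightly below it and Lta4h above it. Hpgds lies in the quadrant where the lots have opposite signs.

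Upstream sequence is shown for the 2 members with an entry in the RefSeq promoter table (build GRCm38.p6) and both null arrays above wild type. Each sequence is the 250 bases before the annotated gene start, 5′ to 3′ on the gene's strand, at chr14:55765712-55765961 (plus strand) for Ltb4r1 and chr10:93453146-93453395 (plus strand) for Lta4h. Capitals mark GGAA on either strand (TTCC where it lies on the other), the core bound by ETS factors such as the myeloid regulator PU.1.
Ltb4r1: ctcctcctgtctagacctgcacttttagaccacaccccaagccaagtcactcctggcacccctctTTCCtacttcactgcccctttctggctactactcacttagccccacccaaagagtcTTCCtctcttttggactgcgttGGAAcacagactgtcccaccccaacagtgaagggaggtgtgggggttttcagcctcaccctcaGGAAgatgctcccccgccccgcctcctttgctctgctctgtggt
Lta4h: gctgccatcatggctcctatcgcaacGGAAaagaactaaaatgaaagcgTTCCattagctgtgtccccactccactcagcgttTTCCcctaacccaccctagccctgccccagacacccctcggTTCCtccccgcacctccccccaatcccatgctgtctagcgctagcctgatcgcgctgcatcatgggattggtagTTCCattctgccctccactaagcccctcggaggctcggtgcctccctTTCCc
GGAA occurred 4 times in the Ltb4r1 window and 6 times in that of Lta4h, and 93.4% of the 32851 promoter windows of this length hold it at least once. The E-box CANNTG, the element bound by E proteins, which are known partners of ETO family corepressors, had 0 matches in either window and was found in 66.2% of all windows. The motif AGATAA, bound by GATA factors, and the motif TTGCNNAA, bound by C/EBP factors, each searched on both strands, also had 0 matches in these windows, and occurred in 9.99% and 9.56% of all windows. The Hpgds window held 2 matches of GGAA, 2 of CANNTG, 1 of TTGCNNAA and 0 of AGATAA. These letter matches describe the windows only.

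Other genes of the eicosanoid pathway had differences of both signs, none past the test. A list of 45 such genes, chosen with earlier results of these data known, was used. Of these, 39 had a probe of their own and 29 were in the brighter 50%. None of the 29 passed limma over all genes (0 at an adjusted p under 0.05, smallest adjusted p = 0.0850), while 9 were higher and 3 lower at an unadjusted p under 0.05. For all 8445 genes those shares were 9.65% higher and 6.83% lower. Both null arrays were above both wild-type arrays for 12 of the 29 and below for 7, against 22.6% and 23.1% of all genes. The median log2 difference of the 29 was -0.06, against -0.02 over all genes.

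At the start of the pathway, Pla2g4a, the cytosolic phospholipase A2 gene, had 27353 and 25539 units on null arrays and 18781 and 17638 units on wild-type arrays (log2 difference 0.54, SE 0.17, limma adjusted p = 0.262). The groups did not overlap. The largest difference among pathway genes was that of Mgst2, a microsomal glutathione transferase gene whose product can make leukotriene C4. It had 40804 and 35881 units on null arrays, against 13073 and 11553 units on wild-type arrays, a ratio of 3.11 (log2 difference 1.64, SE 0.19, limma adjusted p = 0.0850). Mgst3, a relative of Mgst2, differed in the opposite direction in both lots, with 17517 and 11641 units on null arrays and 35599 and 23625 units on wild-type arrays (log2 difference -1.02, SE 0.33, limma adjusted p = 0.269). Whether the 2 differences differ from each other was not tested. Abcc1, which encodes an exporter of leukotriene C4, had 2901 and 1502 units on null arrays and 1214 and 782 units on wild-type arrays (log2 difference 1.10, SE 0.43, limma adjusted p = 0.340). Its log2 difference was 0.62 with null array 1 left out.

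Among receptors for leukotrienes and lipoxins, Fpr2, a formyl peptide receptor gene whose product also binds lipoxin A4, had 528 and 602 units on null arrays and 1179 and 1673 units on wild-type arrays. Both null arrays were below both wild-type arrays, the opposite order to Ltb4r1 (log2 difference -1.32, SE 0.25, limma adjusted p = 0.125). Cysltr1, a receptor gene for cysteinyl leukotrienes, had overlapping groups and a log2 difference of -0.11 (limma adjusted p = 0.930). It had -0.47 in lot 1 and 0.25 in lot 2. Cysltr2, a further receptor gene of this kind, had both null arrays above wild type (log2 difference 0.75, limma adjusted p = 0.527). Its difference was 1.37 in lot 1 and 0.12 in lot 2. Of these 3 receptor genes, 1 had null arrays above and 1 below, against 22.6% and 23.1% of all genes. Alox12, the platelet-type 12-lipoxygenase gene, had 13106 and 12521 units on null arrays and 6945 and 6700.3 units on wild-type arrays, 1.88-fold higher (log2 difference 0.91, limma adjusted p = 0.120).

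On the prostaglandin side, 2 of the 4 tested genes of breakdown and uptake and 4 of the 8 receptor genes had both null arrays above wild type, with 1 below in each group, and none passed limma. Of the 3 synthase genes tested, 0 had null arrays above and 2 had them below. Over all genes, 22.6% had null arrays above and 23.1% below. Ptgr1, the gene of an enzyme that inactivates both prostaglandins and leukotriene B4, had 69281 and 68228 units on null arrays and 31819 and 36451 units on wild-type arrays (log2 difference 1.01, SE 0.18, limma adjusted p = 0.113). Hpgd, the 15-hydroxyprostaglandin dehydrogenase gene, which is distinct from Hpgds, had 1565 and 1414 units on null arrays and 643 and 520.3 units on wild-type arrays (log2 difference 1.36, limma adjusted p = 0.101). The null arrays were high for both of these genes. Cbr1, a carbonyl reductase gene, had the opposite order, with 14894 and 13130.3 units on null arrays and 23721 and 16669 units on wild-type arrays (log2 difference -0.51, limma adjusted p = 0.436). Groups overlapped for Ptgr2, a further prostaglandin reductase gene (log2 difference -0.13, limma adjusted p = 0.835).

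The prostaglandin E2 receptor genes Ptger2 and Ptger4 had opposite orders. Ptger2 had 3916 and 4019 units on null arrays and 1486 and 1817 units on wild-type arrays (log2 difference 1.27, SE 0.19, limma adjusted p = 0.102). Ptger4 had 3624 and 3395 units on null arrays and 6419 and 6146 units on wild-type arrays (log2 difference -0.84, SE 0.17, limma adjusted p = 0.131). Neither pair of groups overlapped, and the contrast between the 2 genes was not itself tested. Ptger3, a further prostaglandin E2 receptor gene, had both null arrays above wild type (log2 difference 0.74, limma adjusted p = 0.255). Groups overlapped for Ptger1, of the same family (log2 difference -0.21, limma adjusted p = 0.807). Tbxa2r, the thromboxane receptor gene, had a log2 difference of 1.36 (limma adjusted p = 0.123), with 1.68 in lot 1 and 1.04 in lot 2. Ptges, an inducible prostaglandin E synthase gene, read 122 and 165 units on null arrays and 56.9 and 92.6 units on wild-type arrays, at or below the level of the Y-linked probes, so that no fold is given.

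**Figure D3:**
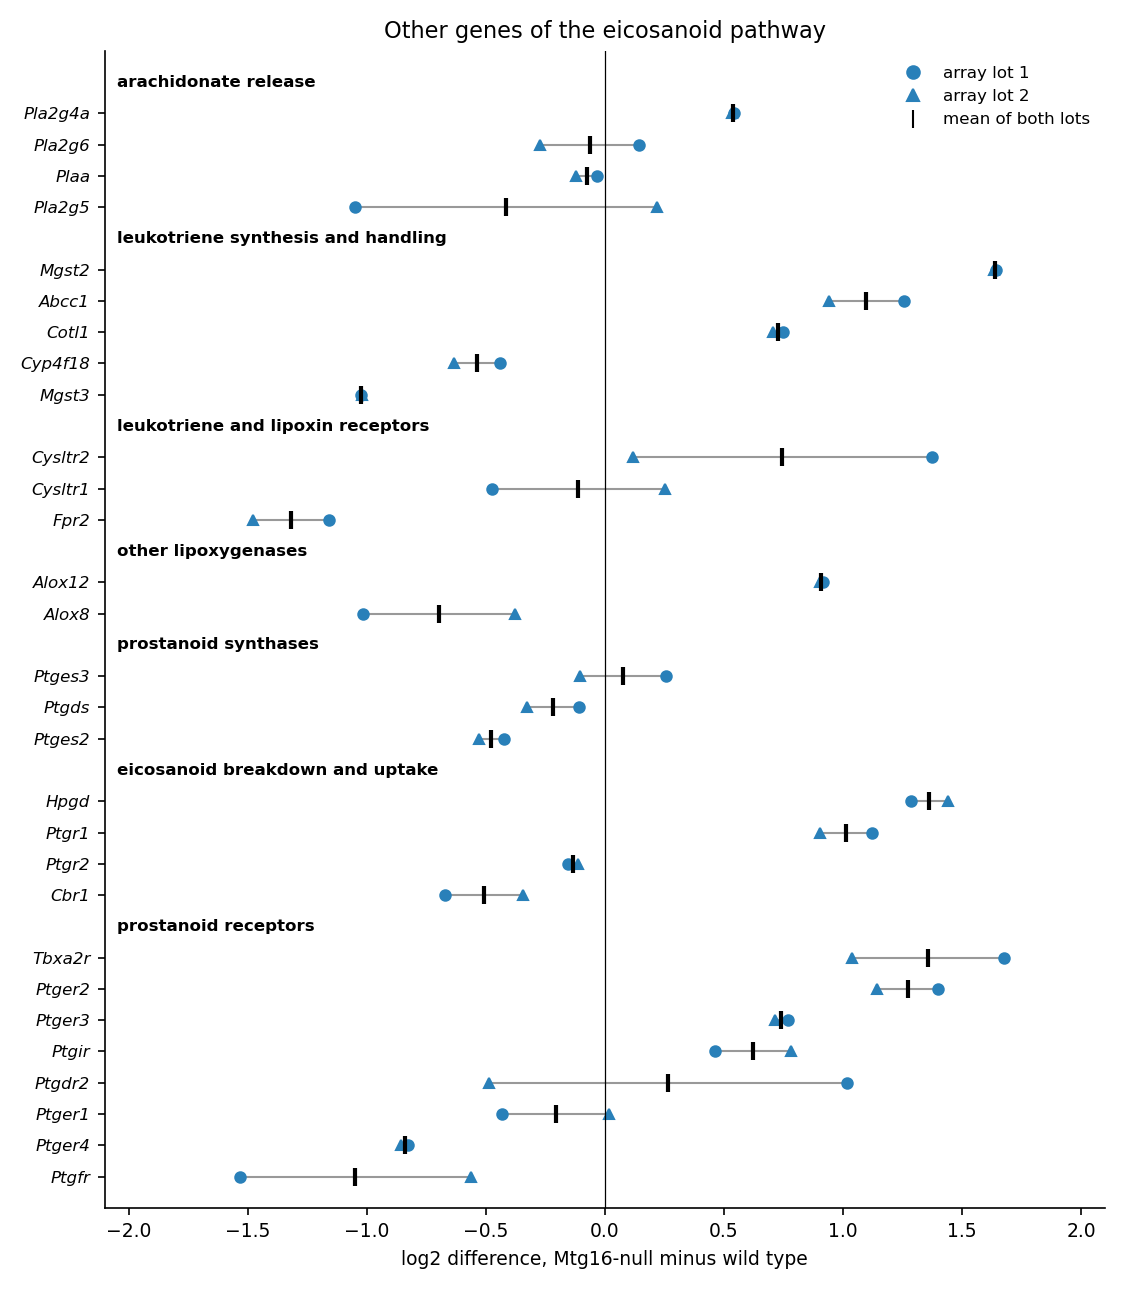
Log2 difference, null minus wild type, of the 29 tested eicosanoid pathway genes other than the members, grouped by role, with a circle for lot 1, a triangle for lot 2 and a tick for their mean. Mgst2 (1.64), Ptger2 (1.27) and Ptgr1 (1.01) lie right of 0 in both lots, and Mgst3 (-1.02), Fpr2 (-1.32) and Ptger4 (-0.84) lie left of it in both.

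Of 8 lists of cell type markers, that of late neutrophils was the only one with genes past the limma test, and the other 7 lists had 0. Over all 8445 genes, 0.118% passed. Both null arrays were above both wild-type arrays for 22.6% of all genes and below for 23.1%. The lists were chosen with earlier results of these data known. Late neutrophil markers were lower, with both null arrays below both wild-type arrays for 11 of 11 tested genes, 7 of which fell by the limma test over all genes (0 with the lot as a block), and a summed signal of 148105 to 158427 units in null and 1369470 to 1485620 units in wild type. For early granulocyte markers, 8 of 10 had both null arrays above wild type, with a median log2 difference of 1.74 and summed signals of 3762960 to 4395100 units in null and 1883830 to 1897880 units in wild type. Eosinophil markers had both null arrays above wild type in 5 of 5 tested genes, with a median log2 difference of 1.46 and sums of 475708 to 556498 units in null and 119428 to 129762 units in wild type. At an unadjusted p under 0.05, limma had 7 early granulocyte, 5 eosinophil, 7 megakaryocyte, 4 monocyte, 3 stem cell, 1 mast cell or basophil and 1 lymphoid gene higher. Lower at that p were 11 late neutrophil, 1 megakaryocyte, 1 monocyte and 3 mast cell or basophil genes. Over all 8445 genes, 9.65% were higher and 6.83% lower at that p. These sums are carried by the brightest probes: S100a9 alone gave 730356 and 886196 units on the wild-type arrays, and Prss34 gave 497800.0 and 419560.0 units of the mast cell and basophil sums on null arrays.

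Of the 8 megakaryocyte markers tested, 7 had null arrays above and 1 below, and their summed signal was 843025 to 956568 units in null and 499612 to 500629 units in wild type. The 9 mast cell and basophil markers tested had a median log2 difference of -0.54, with 1 gene above and 5 below. Their list's sums, over 11 probes, were 671668 to 739894 units in null and 877767 to 974125 units in wild type. For 7 monocyte and macrophage markers tested the median was 0.96, with 5 above and 1 below. That list's sums, over 9 probes, were 387600.0 to 435519 units in null and 218042 to 276514 units in wild type. Of 5 lymphoid markers tested, 2 had null arrays above and 3 overlapped, with a median of 0.77 and sums, over 8 probes, of 23467 to 27441 units in null and 14674 to 20474 units in wild type. That median leaves out the B cell gene Ms4a1, whose probe was below the brighter 50% and which had 68.0 and 143 units on null arrays and 1444 and 1767 units on wild-type arrays (log2 difference -3.94, limma adjusted p = 0.260 without the filter). Of 8 stem and multipotent cell markers tested, 5 had null arrays above and 3 overlapped, with a median of 0.41. The sums of that list, over 9 probes, were 153418 to 158357 units in null and 122349 to 125277 units in wild type. Ltb4r1, Alox5ap and Lta4h, at 0.89 to 1.09, had the sign of the early granulocyte, eosinophil, megakaryocyte, monocyte, lymphoid and stem cell medians and the opposite sign to the late neutrophil median of -3.64 and the mast cell and basophil median of -0.54. The part of these cell types in the members' differences was not tested.

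**Figure D4:**
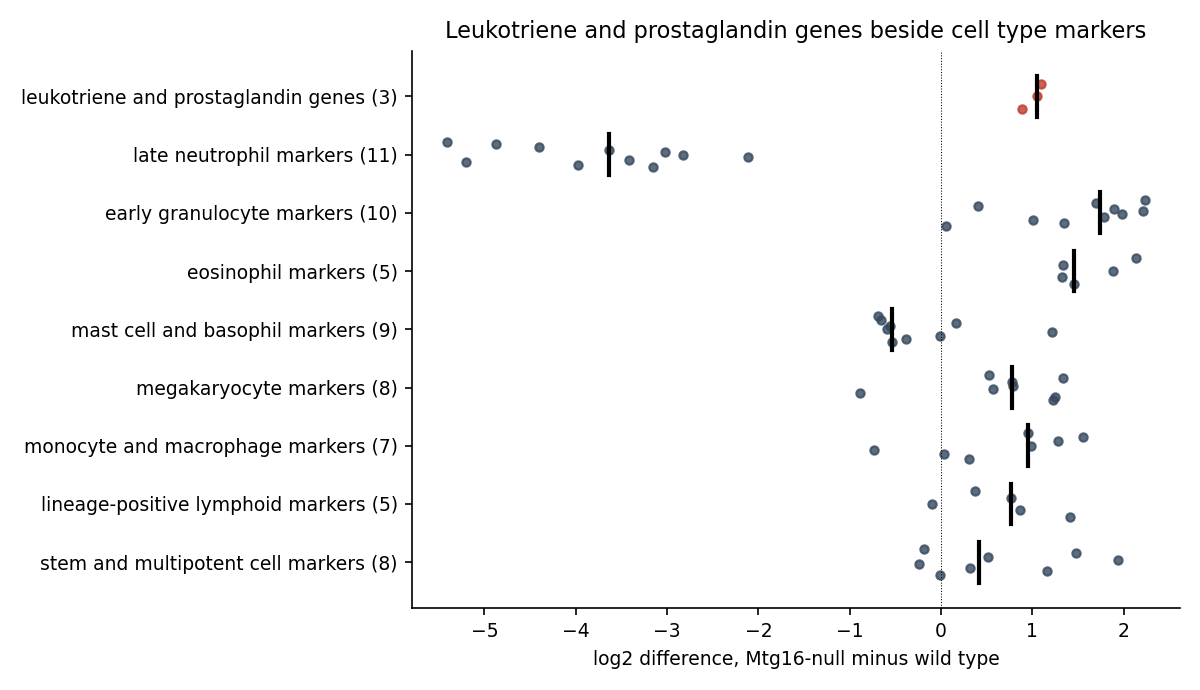
Log2 difference, null minus wild type, of the 3 tested leukotriene and prostaglandin genes (red) and of the tested genes of 8 marker lists (dark), 1 point a gene, with the number of genes in brackets and a bar at each median. The members lie between 0.89 and 1.09, and the late neutrophil markers between -5.41 and -2.11.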

How the data were processed

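The deposited table holds linear probe intensity for 33012 probes on each of 4 arrays, from 28.2 to 3093950 units. The values show that the authors had quantile normalized them, since sorted values differed by at most 0.286% between arrays. For scanner software, background correction and detection calls, the entry is not given in the sources used here. Probes were named from the platform annotation, where 14411 had 1 symbol, 247 several and 18354 none.

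Values under the 1st percentile (75.8 units) were raised to it before the log2 transform. By mean log2, the brighter 50% of probes (16506) stayed in, with 1 probe per gene, that of highest mean signal. limma 3.58.1 in R 4.3.3 (lmFit, eBayes) was fitted to the 4 arrays, with no term other than genotype (2 residual and 2.11 prior degrees of freedom), with Benjamini-Hochberg adjustment over 8445 genes and a threshold of 0.05. Genes below the filter were fitted without it, over 13840 genes. Figures were drawn with matplotlib 3.10.9. The number of arrays limits the precision.

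The series text gives the replicate number as the array lot, so lots pair the arrays. Deviations from the genotype means correlated at r = 0.50 between the 2 arrays of a lot, across genes. The lot as a block, 2 other filters, 2 other floors, quantile and cyclic loess normalization, a variance trend, other choices of probe and each array left out were tried.

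The members and gene lists were chosen with earlier results of these data known. All members are named. Of pathway genes in the brighter 50%, the rule named the 10 with the largest smaller within-lot difference where both lots had the same sign, any that passed limma, and Pla2g4a, Ptges, Tbxas1, Alox12, Cysltr1 and Ptger4, of which Tbxas1 was not analysed here. Markers are given mainly by list. Cbfa2t3, Cd3e, Cd4, Cd3g, Ms4a1, Il5ra, Ccr3, Cysltr2, Cbr1, Ptgr2, Ptger1 and Ptger3 are named outside this rule, chosen after their values were seen.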

Additional observations from a re-analysis of the deposited data

How the results depend on the processing

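Ltb4r1, Alox5ap and Lta4h kept their direction under every alternative run. With an array left out, their log2 differences ran from 1.02 to 1.16, from 1.01 to 1.08 and from 0.56 to 1.23. The number of members past limma's threshold was 0 in the fit reported and 2 with the brighter 25% of probes or with a variance trend (Ltb4r1 at 1.09 and Alox5ap at 1.05 in both). It was 0 under the other alternatives, an array left out among them. For pathway genes the count was 0 of 29. It was 4 of 13 with the brighter 25% of probes (Mgst2, Alox12, Ptgr1 and Ptger4). With a variance trend it was 3 of 29 (Mgst2, Alox12 and Ptgr1). Over all genes it was 10 of 8445, against 0 with the lot as a replicate block (2055 with a raw p under 0.05). It was 0 of 13840 with no filter on dim probes (1514 by the raw p). The brighter 25% gave 291 of 4967 and a variance trend 295 of 8445. With an array left out, the spread of the group left with 1 array is taken from the other. The block, with 1 residual degree of freedom, gave the members and pathway genes 0 calls as well. The cause of these shifts was not tested.

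Within lots, Alox5ap had 1.10 and 0.99. Hpgds had 0.87 in lot 1, against its sign over both lots, and -1.52 in lot 2. Without null array 2 it had 0.48 and without wild-type array 2 it had 0.07, in a range of -1.13 to 0.48 with an array left out. Cysltr1 turned to 0.36 without wild-type array 1 and 0.25 within lot 2, in a range of -0.58 to 0.36 with an array left out. Probes near the level of the Y-linked ones limit what can be said of Hpgds and Ptges.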
